A study of Sus scrofa with 6 samples.

Results

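The genes described here mark T cells and cytotoxic lymphocytes. They were chosen by name: the rows of the expression table called CD3D, CD3E, CD3G, CD2, CD4, CD8A, LCK, ZAP70, PRF1 and NKG7, which are 10 of the 30477 genes in the table. Each name had 1 row. RNA was sequenced from the abdominal aorta of male Wuzhishan pigs, a Chinese miniature breed, with 1 library per pig. The NC group (n = 3) ate normal chow, and the HFCF group (n = 3) ate a diet high in fat, cholesterol and fructose. Feeding lasted 6 months. The labels give an age of 3 to 4 months for all pigs, while the study's methods give an older one, and no transgene or drug was involved. The comparison addresses which transcripts differ in the aortic wall between the diets, and each HFCF pig is also reported on its own.

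A T cell recognises antigen with its T cell receptor, which signals through the CD3 chains. The co-receptors CD4 and CD8 bring the kinase LCK to the receptor, LCK phosphorylates the CD3 chains, and the kinase ZAP70 docks on them and passes the signal on. Cytotoxic T cells and natural killer (NK) cells kill by releasing granules that hold perforin, encoded by PRF1, and granzymes, and NKG7 is a membrane protein of these granules. T cells are found beside macrophages in atherosclerotic plaques.

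Levels are in FPKM (fragments mapped to a gene, per exon length and per library size), so they are per length and can be set side by side between genes. The summed FPKM was 272207 to 287141 in the NC libraries and 330222 to 338690 in the HFCF libraries. The relative depth, read from the smallest steps between FPKM values, was 1 to 1.37 in the NC libraries and 1.03 to 1.07 in the HFCF libraries, and the absolute depth is unknown. A mitochondrial rRNA gene (ENSSSCG00000018061) was at 0.295 to 0.686 FPKM in the NC libraries and at 141 to 206 FPKM in the HFCF libraries, without overlap. The other one in the table (ENSSSCG00000018063) was at 113 to 372 FPKM in the NC libraries and at 101 to 130 FPKM in the HFCF libraries, with overlap. The library of HFCF pig 1 stood apart within its group. The summed level of 3 red blood cell markers was 2883 FPKM in HFCF pig 1, 85.6 and 95.5 FPKM in HFCF pigs 2 and 3 and 22.0 to 178 FPKM in the NC pigs. The summed level of 4 neutrophil markers was 94.4 FPKM in HFCF pig 1, 11.9 and 5.40 FPKM in HFCF pigs 2 and 3 and 0.474 to 2.21 FPKM in the NC pigs. The results of the 10 genes and the counts over the lists of lymphocyte functions are therefore given with and without this pig. The part of blood or neutrophil RNA in them was not tested.

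T cell transcripts were scarce in the aorta of the NC pigs. The 9 genes other than NKG7 ranged from 0 to 0.533 FPKM there. In HFCF pig 1, the 8 genes other than NKG7 and CD3G were at 1.005 to 5.87 FPKM. In HFCF pigs 2 and 3 the same 8 genes were at 0.0779 to 1.22 FPKM. Summed over the 9 genes, the level was 1.17 to 1.55 FPKM in the NC pigs, 20.8 FPKM in HFCF pig 1, 4.00 FPKM in HFCF pig 2 and 4.31 FPKM in HFCF pig 3. In a bulk sample, fewer cells of a type and less RNA per cell cannot be told apart.

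**Figure D1:**
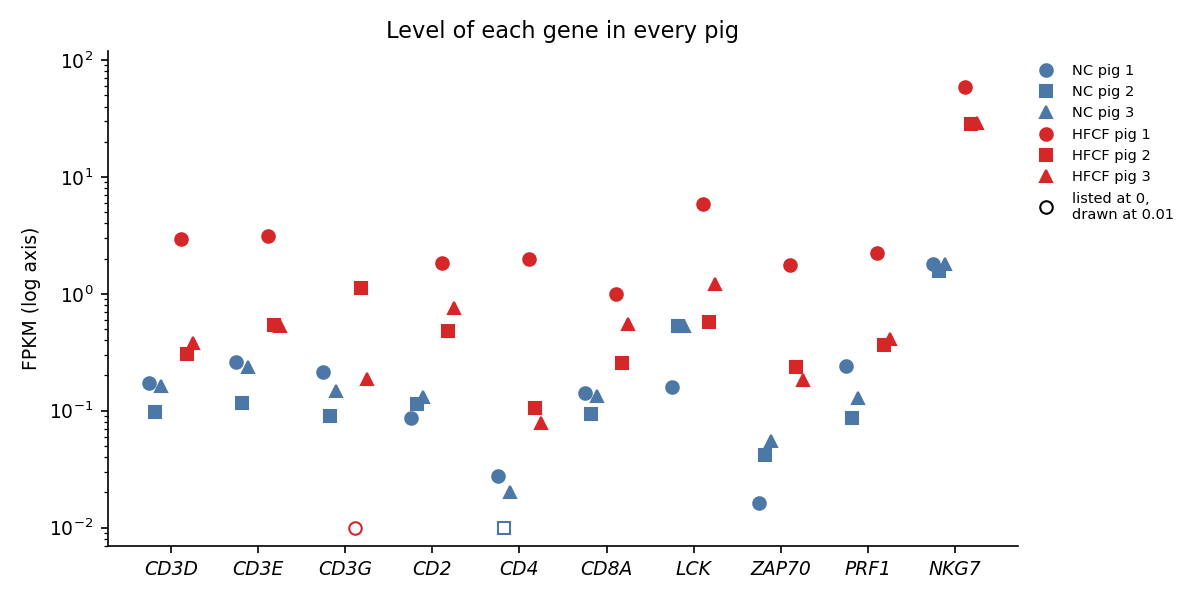
FPKM of the 10 genes (log axis) in each of the 3 NC pigs (blue) and 3 HFCF pigs (red), with 1 point per pig and open points for values listed at 0. HFCF pig 1 lies above the other 5 pigs in 9 of the 10 genes, CD3G is the exception, and NKG7 spans 28.3 to 58.9 FPKM in the HFCF pigs.

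CD3D, the delta chain of the CD3 complex, was at 0.171, 0.0967 and 0.163 FPKM in NC pigs 1, 2 and 3. It was at 2.96 FPKM in HFCF pig 1, 0.308 FPKM in HFCF pig 2 and 0.378 FPKM in HFCF pig 3. The groups did not overlap, and HFCF pig 1 was at 8.62 times the mean of the other HFCF pigs. The fitted log2 fold change, on the log2(FPKM + 0.1) scale, was 1.80 (SE 0.76, n = 3 per group) with an adjusted p of 0.118 (limma over all tested genes, 0.0844 to 0.247 over the alternatives). This scale understates the change of low genes.

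CD3E, the epsilon chain, was also highest in HFCF pig 1. It was at 0.261, 0.117 and 0.239 FPKM in the NC pigs and at 3.11, 0.545 and 0.532 FPKM in HFCF pigs 1, 2 and 3. The groups did not overlap. The log2 fold change was 1.87 (SE 0.66, n = 3) with a limma adjusted p of 0.0731 (0.0634 to 0.184 over the alternatives).

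CD3G, the gamma chain, had another pattern. Its levels were 0.213, 0.0899 and 0.148 FPKM in the NC pigs, 1.13 FPKM in HFCF pig 2 and 0.187 FPKM in HFCF pig 3, and it was listed at 0 in HFCF pig 1. That library had the highest CD3D and CD3E of all 6. HFCF pig 3 lay within the NC range. Its log2 fold change was 0.42 (95% interval -1.62 to 2.46) with a limma adjusted p of 0.746, and its sign turned without HFCF pig 2 (-0.54). In the RefSeq order of coding genes (Sscrofa11.1), CD3D lies directly between CD3E and CD3G. In HFCF pig 1, 3 genes at 1 FPKM or more in the other 5 libraries were listed at 0. HFCF pig 2 had 3 such genes and NC pig 2 had 1. Whether the listed 0 of CD3G is a failed estimate was not tested.

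CD2, an adhesion receptor of T cells and NK cells, rose in HFCF. It was at 0.0873, 0.113 and 0.130 FPKM in the NC pigs. The HFCF pigs had 1.85, 0.485 and 0.761 FPKM, all above the NC pigs. The fitted difference was a log2 fold change of 2.25 (SE 0.48, n = 3) with a limma adjusted p of 0.0153. Without HFCF pig 1 it was 1.76 with an adjusted p of 0.0221, and without NC pig 1 the call was lost (adjusted p = 0.0585, against a range of 0.0125 to 0.0585 over the 14 alternatives with a value).

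CD4, the co-receptor of helper T cells, had the lowest NC mean of the 10 genes, although ZAP70 was lower in NC pig 1. It was at 0.0277 FPKM in NC pig 1, listed at 0 in NC pig 2 and at 0.0203 FPKM in NC pig 3. HFCF pig 1 had 1.97 FPKM, while HFCF pigs 2 and 3 had 0.105 and 0.0779 FPKM. HFCF pig 1 was thus at 21.5 times the mean of the other HFCF pigs, the widest such gap among the 10 genes. The log2 fold change was 1.87 (SE 0.93, n = 3) with a limma adjusted p of 0.171. Without HFCF pig 1, CD4 fell under the mean of 0.1 FPKM needed for a test.

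CD8A, the alpha chain of the co-receptor of cytotoxic T cells, was at 0.140, 0.0932 and 0.134 FPKM in the NC pigs. It was at 1.005, 0.254 and 0.557 FPKM in HFCF pigs 1, 2 and 3. No HFCF pig overlapped the NC pigs, and HFCF pig 1 was at 2.48 times the mean of the other HFCF pigs. Its log2 fold change was 1.52 (SE 0.47, n = 3) with a limma adjusted p of 0.0494, just under the threshold of 0.05. The call was kept in 3 of 14 alternatives (adjusted p 0.0290 to 0.129). It was lost without HFCF pig 1 (adjusted p = 0.101), HFCF pig 3 (0.104) or NC pig 1 (0.115), 2 (0.129) or 3 (0.0977). Its partner chain CD8B was listed at 0 in the 3 NC pigs and in HFCF pig 2, with 0.285 FPKM in HFCF pig 1 and 0.0353 FPKM in HFCF pig 3.

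LCK, the kinase that starts receptor signalling, was at 0.161, 0.529 and 0.533 FPKM in the NC pigs. HFCF pig 1 had 5.87 FPKM, the highest value of the 9 genes other than NKG7, and HFCF pigs 2 and 3 had 0.575 and 1.22 FPKM. The groups did not overlap, although HFCF pig 2 lay close to NC pigs 2 and 3. The fitted difference was a log2 fold change of 1.89 (SE 0.80, n = 3) with a limma adjusted p of 0.118 (0.0555 to 0.307 over the alternatives).

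ZAP70, the kinase recruited to the phosphorylated CD3 chains, was at 0.0163, 0.0415 and 0.0551 FPKM in the NC pigs. It was at 1.77, 0.235 and 0.182 FPKM in the HFCF pigs, so the groups did not overlap. HFCF pig 1 was at 8.49 times the mean of the other HFCF pigs. The log2 fold change was 2.04 (SE 0.74, n = 3) with a limma adjusted p of 0.0766. With a pseudocount of 0.01 FPKM ZAP70 passed the threshold (adjusted p = 0.0462, against a range of 0.0462 to 0.195 over its alternatives).

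PRF1, which encodes the pore-forming protein perforin, was at 0.239, 0.0860 and 0.129 FPKM in the NC pigs. It was at 2.24, 0.368 and 0.412 FPKM in the HFCF pigs, and the groups did not overlap. Its log2 fold change was 1.76 (SE 0.66, n = 3) with a limma adjusted p of 0.0863 (0.0612 to 0.205 over the alternatives).

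NKG7 was the most abundant of the 10 genes in every pig and rose in HFCF. It was at 1.80, 1.56 and 1.80 FPKM in the NC pigs (1.72 ± 0.142, SD, n = 3). It was at 58.9, 28.3 and 29.0 FPKM in the HFCF pigs (38.7 ± 17.4, SD, n = 3). All 3 HFCF pigs were far above the NC pigs, and the ratio of the group means was 22.5. The fitted difference was a log2 fold change of 4.33 (SE 0.30) with a limma adjusted p of 0.000518, and it was called in all 15 alternatives (adjusted p 0.00051 to 0.00617). Without HFCF pig 1 the log2 fold change was 3.99. HFCF pig 1 was at 2.05 times the mean of HFCF pigs 2 and 3, the smallest excess among the 9 genes that peaked in this pig. The difference between NKG7 and the other genes was not tested.

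**Figure D2:**
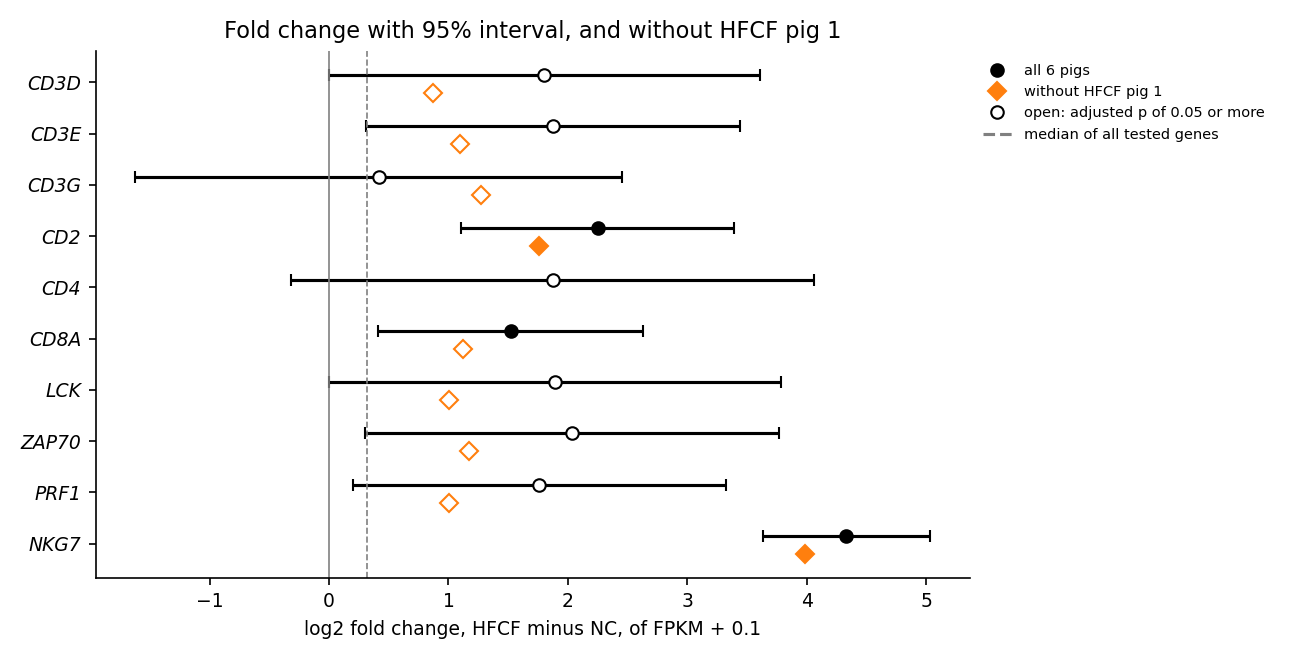
Log2 fold change (HFCF minus NC, of FPKM + 0.1) of each gene with its 95% interval from all 6 pigs (circles) and from 5 pigs without HFCF pig 1 (diamonds), where filled symbols have an adjusted p under 0.05. NKG7 and CD2 are filled in both fits, CD8A in the fit of all pigs only, and CD4 has no diamond because its mean was too low for a test.

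By the adjusted p of limma, 3 of the 10 genes were higher in HFCF (NKG7, CD2 and CD8A), and 0 were lower, also at an unadjusted p under 0.05. Of all 15384 tested genes, 22.8% were called higher and 6.16% lower, so the count of members called is close to the share over all genes. Without NC pig 1 the count was 1 (NKG7). The scaling moved the split over all genes: 3505 genes were called higher and 948 lower with FPKM as deposited, 2229 and 1527 with TPM, 2032 and 1968 with median-ratio scaling and 1748 and 1782 with quantile normalization. Over all tested genes the log2 fold changes had a median of 0.32 with FPKM as deposited, -0.0031 with median-ratio scaling, -0.07 with quantile normalization and 0.09 with TPM. The median of the 10 genes was 1.87, which is 1.55 above that of all genes, and it stayed positive under each of the 3 scalings (1.36 to 1.903). It depended on the pseudocount, with 0.72 at a pseudocount of 1 and 2.26 at 0.01.

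The thresholds of the study for a higher DEG are a ratio of group means above 2 and an unadjusted p under 0.05. They were applied here with the unadjusted p of limma, and the result was not set against the study's own list of DEGs. On this basis 7 of the 10 genes were higher (CD3D, CD3E, CD2, CD8A, ZAP70, PRF1 and NKG7), against 20.7% of all tested genes. The count was 6 without HFCF pig 1, 3 without NC pig 2 and 3 without NC pig 3. In 9 of the 10 genes every HFCF pig was above every NC pig, against 36.1% of all tested genes. CD4 and ZAP70 passed the filter on low values only through the HFCF pigs, since 8 of the 10 genes had an NC mean of at least 0.1 FPKM.

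Each HFCF pig was then set against the NC pigs on its own, as a description without a test. HFCF pig 1 was above the highest NC value in 9 of the 10 genes (52.5% of all tested genes), HFCF pig 2 in 10 (51.8%) and HFCF pig 3 in 9 (49.9%). The median log2 difference of the 10 genes from the NC mean was 3.54 in HFCF pig 1, 1.03 in HFCF pig 2 and 1.08 in HFCF pig 3. The same median over all tested genes was 0.36, 0.33 and 0.29. The pigs thus shared the direction, but HFCF pig 1 had the larger size. It was the highest HFCF pig in 9 of the 10 genes, against 42.5% of all tested genes.

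The difference in HFCF pig 1 was 5.02 for NKG7, 4.16 for CD4, 3.78 for ZAP70, 3.67 for LCK, 3.66 for CD3D, 3.43 for CD3E, 3.26 for PRF1, 3.22 for CD2, 2.32 for CD8A and -1.29 for CD3G, in log2 units. In HFCF pigs 2 and 3 NKG7 was at 3.97 and 4.00. Apart from NKG7, the largest difference was 2.32 for CD3G in HFCF pig 2 and 2.04 for CD2 in HFCF pig 3. LCK differed least in HFCF pig 2 (0.52), and CD3G least in HFCF pig 3 (0.22).

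Without HFCF pig 1, 9 of the 10 genes could be tested and 2 were called higher (NKG7 and CD2), against 18.5% of all genes in that fit. In 8 of these 9 the remaining pigs did not overlap, against 41.4%. The median log2 fold change of the genes was 1.12, down from 1.87. In log2 units, CD3D then differed by 0.87 (limma adjusted p = 0.132) and CD3E by 1.10 (0.0833). LCK had 1.01 (0.222), ZAP70 1.17 (0.0764) and PRF1 1.01 (0.120). CD3G was the gene that gained, to 1.27 (0.209).

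The genes were next set against a pan-leukocyte gene and a macrophage gene in the same library. PTPRC, which encodes CD45 and is carried by all leukocytes, was at 0.250, 0.337 and 0.499 FPKM in the NC pigs and at 17.1, 4.28 and 4.10 FPKM in the HFCF pigs (log2 fold change 3.92, limma adjusted p = 0.00423). CD68, a lysosomal glycoprotein of macrophages, was at 3.65, 4.11 and 5.67 FPKM in the NC pigs and at 261, 114 and 98.0 FPKM in the HFCF pigs (log2 fold change 4.99, limma adjusted p = 0.000645). Both rose.

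CD3E was at 104%, 34.9% and 47.8% of PTPRC in the NC pigs and at 18.1%, 12.7% and 13.0% in the HFCF pigs. CD3D was at 28.7% to 68.5% of PTPRC in the NC pigs and at 17.3%, 7.19% and 9.23% in the HFCF pigs. CD4 was at 11.5% in HFCF pig 1 against 2.46% and 1.901% in HFCF pigs 2 and 3, and ZAP70 at 10.3% against 5.49% and 4.44%. In these 4 genes and in LCK (34.3%, 13.4% and 29.8%) and PRF1 (13.1%, 8.59% and 10.1%) HFCF pig 1 had the highest ratio of the HFCF pigs, whereas in CD2, CD8A, CD3G and NKG7 it had the lowest. CD2 was at 26.0% to 34.9% of PTPRC in the NC pigs and at 10.8%, 11.3% and 18.6% in the HFCF pigs. CD8A was at 26.8% to 56.1% and at 5.87%, 5.93% and 13.6%. The NC ratios rest on very low levels of both genes. Lower ratios without overlap were found for 7 of the 10 genes against PTPRC and 8 against CD68, but 90.2% and 92.9% of all other tested genes had them too, so these counts are no result about lymphocyte genes. The groups overlapped for NKG7, which was at 720%, 462% and 360% of PTPRC in the NC pigs and at 344%, 662% and 707% in the HFCF pigs. Against CD68, NKG7 was at 49.4%, 37.9% and 31.7% in the NC pigs and at 22.6%, 24.9% and 29.6% in the HFCF pigs.

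**Figure D3:**
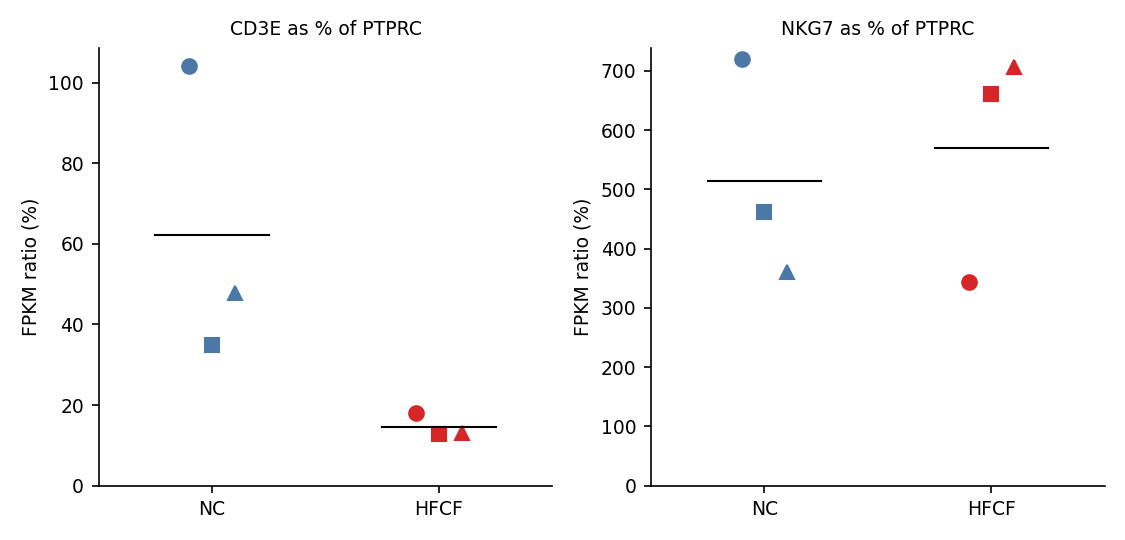
FPKM of CD3E (left) and NKG7 (right) as a percentage of the FPKM of PTPRC in the same library, with 1 point per pig (circle, square and triangle for pigs 1, 2 and 3) and a line at the group mean. CD3E is at 34.9% or more in the NC pigs and at 18.1% or less in the HFCF pigs, while the groups overlap for NKG7.

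Further genes of the same functions were taken from 7 lists, of which 102 of 120 names were found and 89 of 103 rows were tested. In all, 35 were called higher in HFCF and 0 lower by limma, beside 22.8% and 6.16% of all tested genes. These shares are not like for like: 55 of the 89 rows had an NC mean of at least 0.1 FPKM, against 14536 of all 15384 tested genes, and the other rows passed the filter only through the HFCF pigs, so that they could hardly be lower. At an unadjusted p under 0.05, 51 were higher and 0 lower. Of all 15384 tested genes, 6513 had such a p, of which 1575 were lower. The median log2 fold change of the 89 rows was 1.60. Without HFCF pig 1, 32 of 70 tested rows were called higher (18.5% of all genes). Without NC pig 1 the count was 22, and that over all genes was 1979. The called genes of these lists that are named below had smaller log2 fold changes without HFCF pig 1, among them VAV1 (3.53), LCP2 (3.26), PTPRCAP (2.21), SLAMF6 (3.74), HAVCR2 (3.69), CXCR4 (3.44), CCL5 (3.26), STXBP2 (2.94), FCER1G (3.63) and TYROBP (3.33). Those 10 kept their calls. In 80 of the 89 rows HFCF pig 1 was the highest HFCF pig, against 42.5% of all tested genes.

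Of 20 tested genes of the T cell receptor complex and its proximal signalling, 9 rose and 0 fell, beside 22.8% and 6.16% of all tested genes. An NC mean of at least 0.1 FPKM was reached by 11 of the 20, so the others could hardly be called lower. The median log2 fold change was 1.91. Without HFCF pig 1, 15 genes could be tested and 9 rose, beside 18.5% of all genes in that fit. The largest changes were in VAV1, a guanine nucleotide exchange factor of blood cells, with 0.547 to 0.687 FPKM in NC and 18.3, 10.17 and 6.91 FPKM in HFCF (log2 fold change 3.90, adjusted p = 0.00109). LCP2, the adaptor SLP-76, had 0.199 to 0.351 FPKM in NC and 10.6, 3.34 and 3.39 FPKM in HFCF (3.81, adjusted p = 0.00272). PTPRCAP, which binds CD45, followed (2.73, adjusted p = 0.00633). VAV1 and LCP2 are also used by myeloid cells. CD247, the zeta chain of the receptor complex, was at 1.10, 1.24 and 1.16 FPKM in NC and at 2.31, 0.103 and 2.15 FPKM in HFCF, and it was not called (adjusted p = 0.831). Its HFCF pigs lay on both sides of the NC pigs. More restricted to T cells, UBASH3A was at 1.16 FPKM in HFCF pig 1 against 0.0359 and 0.0175 FPKM in HFCF pigs 2 and 3. It was not called (limma adjusted p = 0.336). TRAT1 (2.43, limma adjusted p = 0.0282), SIT1 (2.39, 0.0326) and SKAP1 (2.04, 0.0104) of this list were called. Without HFCF pig 1 their calls remained (adjusted p = 0.0270, 0.0460 and 0.0257). They were called in 9, 7 and 14 of 14 alternatives. CD247, UBASH3A, TRAT1, SIT1 and SKAP1 were named after their values were seen.

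Of 16 costimulatory and inhibitory receptors, 9 reached the level needed for a test. Of these, 2 rose and 0 fell, a share near the 22.8% of all tested genes called higher, and the count was 4 without HFCF pig 2. Without HFCF pig 1 it was 2 of 5 tested genes, beside 18.5% of all genes in that fit. An NC mean of at least 0.1 FPKM was reached by 3 of the 9. SLAMF6 was at 0.0405 to 0.0928 FPKM in NC and at 4.23, 2.51 and 1.58 FPKM in HFCF (log2 fold change 4.08, limma adjusted p = 0.00142). HAVCR2, which encodes the receptor TIM-3 of T cells and myeloid cells, was at 0.0513 to 0.252 FPKM and at 6.87, 2.40 and 4.31 FPKM (4.04, limma adjusted p = 0.0025).

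Of 16 cytokine and homing receptors, 6 rose and 0 fell, beside the 22.8% of all tested genes called higher. An NC mean of at least 0.1 FPKM was reached by 9 of the 16, so the others could hardly be called lower. Without HFCF pig 1, 12 could be tested and 6 rose, beside 18.5% of all genes in that fit. The chemokine receptor CXCR4 was at 0.961, 3.03 and 1.66 FPKM in NC and at 96.0, 18.1 and 20.8 FPKM in HFCF (log2 fold change 4.20, limma adjusted p = 0.00612). HFCF pig 1 was at 4.93 times the mean of the other HFCF pigs. CXCR4 is shared with myeloid cells.

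Of 15 lymphocyte transcription factors, 4 rose and 0 fell, a share near the 22.8% of all tested genes called higher, with a median log2 fold change of 1.34. The median was 0.82 without HFCF pig 1. The count without HFCF pig 1 was 2 of 13 tested genes, beside 18.5% of all genes in that fit. It was 2 without NC pig 3, 1 without NC pig 1 or NC pig 2, and 1 with quantile normalization or a pseudocount of 1. TBX21, which encodes the T-bet of type 1 and cytotoxic lymphocytes, was at 0.0567 to 0.217 FPKM in NC and at 3.02, 0.602 and 0.716 FPKM in HFCF (2.45, limma adjusted p = 0.0268). Its call was lost without NC pig 1 (adjusted p = 0.0847) or NC pig 2 (0.0824). A pseudocount of 1 (0.0742) and quantile normalization (0.0565) also ended it, over a range of 0.0236 to 0.0847. ZNF683 (2.08, adjusted p = 0.0412) lost its call in 10 of 14 alternatives, including without HFCF pig 1 (0.0706), HFCF pig 2 (0.0562) or NC pig 1 (0.0645), 2 (0.118) or 3 (0.0949), over a range of 0.0300 to 0.118. RUNX1, a factor of many blood cells, rose by 1.96 (adjusted p = 0.0103).

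Of 15 rows of cytotoxic effectors, 8 rose and 0 fell, beside 22.8% and 6.16% of all tested genes. The median log2 fold change was 2.22, and 10 of the 15 had an NC mean of at least 0.1 FPKM. The count without HFCF pig 1 was 8 of 13 tested rows, beside 18.5% of all genes in that fit. It was 4 without NC pig 1, 5 without NC pig 2 and 4 with a pseudocount of 1. GZMA, the granzyme A gene, has a pair of rows, and reads may be split between near-identical copies. The row ENSSSCG00000016903 was at 0, 0.0628 and 0.124 FPKM in NC and at 12.8, 1.05 and 1.10 FPKM in HFCF (4.09, limma adjusted p = 0.0191), and the row ENSSSCG00000016902 was listed at 0 in the 3 NC pigs and HFCF pig 2 and was not called. The call of the first row was lost without NC pig 1 (adjusted p = 0.0755) or NC pig 2 (0.0542). A pseudocount of 1 also ended it (log2 fold change 1.88, adjusted p = 0.0895), over a range of 0.00956 to 0.0895. The chemokine CCL5 was at 2.10, 0.994 and 2.82 FPKM in NC and at 84.1, 18.9 and 17.5 FPKM in HFCF (3.99, limma adjusted p = 0.00616). CTSW, a cathepsin of cytotoxic lymphocytes, was at 0.257 to 0.555 FPKM and at 17.3, 1.97 and 2.41 FPKM (3.28, limma adjusted p = 0.0221). The CTSW call was lost without NC pig 1 (0.0792) or NC pig 3 (0.0643). It was also lost with a pseudocount of 1 (2.05, 0.0577) or quantile normalization (0.0512), over a range of 0.0104 to 0.0792. Among the rows not called were GZMK (limma adjusted p = 0.537), IFNG (0.483), FASLG (0.133) and LTA (0.700). The part of macrophages and other cells in the levels of the called genes was not tested.

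Of 8 genes of granule release, 4 rose and 0 fell, beside the 22.8% of all tested genes called higher and 6.16% called lower. Without HFCF pig 1, 3 of the 8 rose, beside 18.5% of all genes in that fit. STXBP2, the Munc18-2 that granule fusion needs, changed most of the called genes (3.51, limma adjusted p = 0.00407), followed among them by its partner STX11 (1.85, adjusted p = 0.0106) and VAMP7 (1.10, adjusted p = 0.0154). With the replicate number as a block, VAMP7 lost its call (limma adjusted p = 0.0520) and 2 granule release genes were called higher. Other secretory cells use these genes too. Without HFCF pig 1, 4 of 6 NK cell receptors and adaptors could be tested and 2 rose, beside 18.5% of all genes in that fit. With all pigs, 2 of the 6 rose and 0 fell, beside the 22.8% of all tested genes called higher, and 3 of the 6 had an NC mean of at least 0.1 FPKM. The same 2 genes rose in both fits. These were the adaptors FCER1G, with 233, 77.9 and 91.7 FPKM in HFCF (4.12, limma adjusted p = 0.00126), and TYROBP, with 248, 106 and 110 FPKM (3.73, limma adjusted p = 0.000903). Myeloid cells carry both. The NK receptor gene NCR1 was at 0.0206 to 0.267 FPKM in NC and at 2.54, 0.675 and 0.188 FPKM in HFCF and was not called (adjusted p = 0.102), and KLRD1 was listed at 0 in all 6 libraries.

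The excess of HFCF pig 1 over the mean of the other HFCF pigs was then compared by list, as a description. Its median was 5.75 for the 10 genes (0 to 21.5) and 1.02 for all tested genes. Among the lists of the same functions it was 3.72 for receptor signalling, 2.19 for costimulatory and inhibitory receptors, 2.93 for cytokine and homing receptors, 3.71 for transcription factors, 4.62 for cytotoxic effectors, 5.82 for NK receptors and adaptors and 1.67 for granule release. Among markers of other cells it was 2.50 for macrophages, 5.51 for B cells and plasma cells, 13.0 for neutrophils and 30.6 for red blood cells. It was 2.33 for endothelium and under 1.02 for dendritic cells (0.939), smooth muscle (0.773), fibroblasts (1.01) and adipocytes (0.964), and 1.69 for lymphoid stroma. The median of costimulatory receptors and that of granule release were thus below the macrophage median, while the neutrophil and red blood cell medians were above those of all the lymphocyte lists. The part of blood in the level of the T cell genes was not tested.

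**Figure D4:**
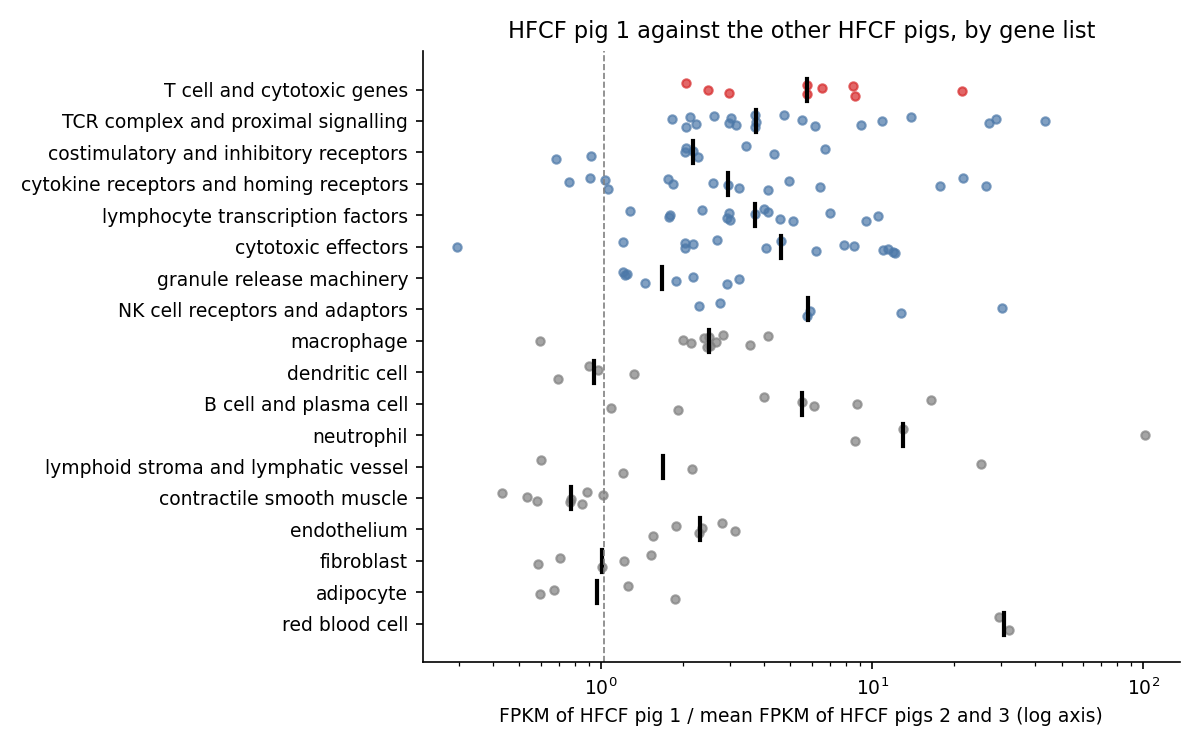
FPKM of HFCF pig 1 divided by the mean FPKM of HFCF pigs 2 and 3 (log axis), with 1 point per tested gene, a bar at the median of the points drawn for each list and a dashed line at the median of all tested genes (1.02). Genes listed at 0 in HFCF pig 1 (CD3G) or in both other HFCF pigs are not drawn. The list medians of the red blood cell (30.6) and neutrophil (13.0) markers are the highest, single genes of other lists overlap them, and the T cell and cytotoxic genes spread from 2.05 to 21.5.

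Markers of other cells in the same tissue gave the following background. All 11 tested macrophage markers rose (median log2 fold change 3.96), beside 22.8% of all tested genes. When 1 pig was left out 9 to 11 did, with 10 and a median of 3.62 without HFCF pig 1. MRC1 kept its call in 4 of 15 alternatives (limma adjusted p = 0.0439, and 0.0525 without HFCF pig 1, over a range of 0.0416 to 0.303). MSR1 (5.22, limma adjusted p = 0.00272) and AIF1 (5.13, adjusted p = 0.000555) changed most, and LYZ was listed at 0 in all 6 libraries. Their summed level was 37.4 to 42.3 FPKM in NC and 1181, 507 and 473 FPKM in HFCF pigs 1, 2 and 3, against 2.72 to 3.35 and 79.6, 32.3 and 33.3 FPKM for the 10 genes, most of it NKG7 in HFCF (58.9, 28.3 and 29.0 FPKM). Of 7 tested B cell and plasma cell markers 1 rose (CD79A, 2.14, limma adjusted p = 0.00178), 2 were called without HFCF pig 3 and 1 without HFCF pig 1, a share below the 22.8% of all tested genes, and their summed level was 8.62 to 14.1 FPKM in NC and 58.5, 39.8 and 36.8 FPKM in HFCF. CSF3R rose among 3 tested neutrophil markers (5.29, limma adjusted p = 0.0061), beside the 22.8% of all tested genes called higher. S100A8 was listed at 0 in the 3 NC pigs and in HFCF pig 3. It reached 11.2 FPKM in HFCF pig 1 and 0.219 FPKM in HFCF pig 2. Of 2 tested red blood cell markers limma called 0, also at an unadjusted p under 0.05. HBB was at 2846 FPKM in HFCF pig 1 and at 21.3 to 175 FPKM in the other 5 pigs, and ALAS2 at 37.2 FPKM and at 0.728 to 3.93 FPKM. Of 4 lymphoid stroma and lymphatic markers 1 rose (CCL21, 1.63, limma adjusted p = 0.0167), a share near the 22.8% of all tested genes. Without NC pig 1 the CCL21 call was lost (0.0630, over a range of 0.00822 to 0.0630). Of 4 dendritic cell markers BATF3 rose (3.08, limma adjusted p = 0.000937), with 2.23, 2.56 and 2.40 FPKM in HFCF, a share near the 22.8% of all tested genes. ZBTB46 of the same list had a log2 fold change of -0.54 (limma adjusted p = 0.214) and was called lower with quantile normalization (0.0352, over a range of 0.0352 to 0.455).

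The wall itself was checked by its defining markers. Of 8 genes of contractile smooth muscle 6 fell and 0 rose, beside 6.16% of all tested genes called lower and 22.8% called higher. The count of those that fell was 1 without NC pig 1, 3 without HFCF pig 1, 3 without HFCF pig 2 and 3 with no filter on low values. Their summed level was 15996 to 22763 FPKM in NC and 8041, 9567 and 12941 FPKM in HFCF. DES fell by 1.48 (limma adjusted p = 0.0124) and SMTN fell by 1.37 (limma adjusted p = 0.0135, and 0.0590 without NC pig 1, over a range of 0.0054 to 0.0590). Of 5 fibroblast markers 1 rose (LUM, 1.96, limma adjusted p = 0.00215), a share near the 22.8% of all tested genes called higher. The others were not called, with log2 fold changes of 0.41 for PDGFRA, 0.26 for DCN, -0.17 for COL1A1 and -0.41 for DPT. Of 6 endothelial markers limma called 0 and 2 had an unadjusted p under 0.05, and of 4 adipocyte markers both counts were 0. Of all 15384 tested genes, 6513 had such a p. Without HFCF pig 3, 1 endothelial marker was called higher, and without NC pig 3, 2 adipocyte markers were called lower. The endothelial PECAM1 was at 40.9 to 92.8 FPKM in NC and at 75.6, 61.1 and 36.5 FPKM in HFCF, and CDH5 at 18.8 to 37.4 FPKM and at 46.9, 24.96 and 15.8 FPKM. FABP4 and ADIPOQ, of fat cells, were at 33.1 to 163 FPKM and 1.22 to 59.9 FPKM in NC and at 65.7 to 86.4 FPKM and 0.301 to 4.08 FPKM in HFCF. The part of such shifts in the levels of lymphocyte genes was not tested.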

How the data were processed

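RNA from the abdominal aorta of 3 NC and 3 HFCF pigs was measured by paired-end sequencing, with 1 library per pig. Per the labels and the methods, the authors aligned reads to the pig genome (Sscrofa 10.2) with HISAT2 and quantified them with StringTie, and the submitters' processing notes also name cutadapt 1.9 and FastQC. The deposited FPKM values of 30477 genes were used as they stand, with 1e-04 FPKM read as 0. Reads and counts were not used, so the depth behind a value is known only in relative terms, and FPKM shares move when a few abundant genes change. The build of the reference table (Sscrofa11.1) differs, so no coordinates are given.

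The test was limma (version 3.58.1, run under R 4.3.3) on log2(FPKM + 0.1), fitted on diet alone with eBayes and a trend, in the 15384 genes with a mean of at least 0.1 FPKM, with Benjamini-Hochberg adjustment over all of them. Called means an adjusted p under 0.05. An exact permutation test of 3 against 3 pigs cannot go below p = 0.1 and was not used. The study gives its DEG thresholds but names no test for them in its RNA-Seq methods. Tested on simulated data of the HFCF against NC comparison over 15384 genes, limma recovered 64 of 100 genes changed by 2 log2 units and 84 of 100 changed by 3.

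The members and lists were chosen with earlier results of these data known. Of each list, up to 3 called genes with the largest positive and 2 with the largest negative log2 fold change are named, or the 2 most abundant where none was called, and some genes that this rule names are not reported here. CD8B, CD247, UBASH3A, TRAT1, SIT1, SKAP1, NCR1, KLRD1, LYZ, MRC1, ZBTB46 and S100A8 were named after their values were seen. So were GZMK, IFNG, FASLG, LTA, PDGFRA, DCN, COL1A1 and DPT. Alternatives were other pseudocounts (0.01 and 1), filters, scalings and variance models, the replicate number as a block, and leaving out each pig. Python 3.11.15 with pandas 2.3.3 and matplotlib 3.10.9 made the summaries and plots.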

Additional observations from a re-analysis of the deposited data

How the results depend on the processing

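NKG7 was called higher in all 15 alternatives and CD2 in 13 of 14 with a value. Of the 10 genes, 3 were called higher, and the count was 1 with a filter at a mean of 1 FPKM, which 2 of the genes reach, and 1 to 3 when 1 pig was left out. The count of DEGs among them, 7, was 3 with a pseudocount of 1, 1 with the filter at 1 FPKM, 4 with quantile normalization and 3 to 8 when 1 pig was left out. The count without overlap, 9, was 2 with that filter and 8 to 9 when 1 pig was left out. CD3G turned sign with a pseudocount of 0.01 (-0.22) and without HFCF pig 2 (-0.54), and spanned -0.54 to 1.27 when 1 pig was left out. Genes of the 7 lists called higher, 35, were 22 (without NC pig 1) to 40 when 1 pig was left out. Over all genes, 3505 called higher became 2032 with median-ratio scaling, 1748 with quantile normalization, 2229 with TPM and 1979 (without NC pig 1) to 2815 when 1 pig was left out, and 948 called lower became 1968, 1782, 1527 and 442 (without NC pig 1; 542 without NC pig 2) to 786. The cause was not tested, except that the filter leaves fewer genes. Same-numbered NC and HFCF pigs did not deviate together (correlations 0.000315, -0.132 and -0.0977 over 11121 genes), and NC pig 3 with HFCF pig 2 had 0.177. The main fit therefore treated the pigs as unpaired. With 3 pigs per group these values cannot exclude a pairing, and the labels name none. With the replicate block, 2232 genes were called higher, 540 lower and 2 of the 10 genes higher, and CD8A (adjusted p = 0.0694) and VAMP7 (0.0520) lost their calls, and granule release genes called higher went from 4 to 2. The low FPKM of most of the genes and 3 pigs per group limit the precision.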
